A study of Pan troglodytes with 8 samples.

Results

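Long intergenic non-coding genes, given LINC symbols, are transcribed from DNA between protein-coding genes and yield RNAs with no long reading frame. Many are read in few cell types, and some act as hosts of microRNAs or lie beside developmental regulators. ATAC-seq inserts sequencing adapters into open DNA with a transposase, so the reads over a region measure how accessible it was, and do not measure whether the gene was transcribed. The regions described here were rows of the deposited count table with a chimpanzee position, a closest gene named LINC followed by digits, and a distance to that gene of at most 50000 bp. They numbered 8130 of 211348 regions and belonged to 1775 LINC genes, among them the readthrough gene LINC02210-CRHR1, whose name meets the rule.

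The 8 libraries came from cerebral organoids of 1 chimpanzee iPSC line, SandraA, collected at week 8 and sorted into 4 populations with 2 libraries each. Apical radial glia (aRG) are the progenitors lining the ventricle, basal radial glia (bRG) are progenitors away from it, basal intermediate progenitors (bIP) are short-lived neuron-producing cells, and N are neurons labelled BCL11B+, after a transcription factor of deep-layer neurons. All libraries shared the same culture and ATAC-seq protocol, and no label says whether libraries 1 and 2 came from separate cultures, so p-values measure only the spread between these samples. Library totals ran from 24913928 to 34845193 counts. Values are given as CPM, read counts relative to the scaled library total. Of 10 radial glia marker loci, 9 were lower in N than in aRG and 1 was higher (edgeR adjusted p under 0.05). Of 8 neuron marker loci, 6 were higher in N and the other 2 were lower. The summed neuron marker loci gave 590.0 to 612.0 CPM in N and 629.0 to 636.0 CPM in bIP. Of 7 intermediate progenitor loci, 3 were higher in bIP than in aRG and 1 was lower. The summed level of 6 inhibitory neuron marker loci was 225.0 to 264.0 CPM in aRG and 103.0 to 110.0 CPM in N. The choroid plexus loci gave 86.0 to 92.3 CPM in aRG and 28.8 to 31.2 CPM in N. The mesenchyme loci gave 53.4 to 66.9 CPM in aRG and 42.0 to 44.1 CPM in N. The endothelium loci went the other way, from 17.3 to 19.2 CPM in aRG to 38.5 to 48.3 CPM in N. Of these 3 endothelium loci, 2 were tested and 1 was called higher in N. The microglia loci gave 6.57 to 6.61 CPM in aRG and 8.28 to 9.57 CPM in N, with 1 of 3 tested and not called. The part of these other cell types in the differences below was not tested. In sorted bulk samples, fewer cells with an open region and less opening per cell cannot be told apart.

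LINC regions were spread unevenly over the chromosomes. Chromosome 1 held 945 of them and chromosome 13 held 666, which was 9.25% of all regions on chromosome 13. On chromosome 21 they made up 8.12% of regions, against 1.66% on chromosome 19 and 1.2% on chromosome 7. A LINC gene had a median of 4 regions within reach, 303 genes had 1 region and 161 had 10 or more. The median distance to the gene was 14312 bp, taken here to be in human coordinates, since a distance is missing exactly where a human position is. The distances pointed to the gene's start, and 513 regions lay over it. Another 309 lay within 1 kb, 2361 between 1 and 10 kb and 4947 between 10 and 50 kb. The regions just inside the limit were those of LINC02703 at 49930 bp, LINC01682 at 49948 bp and LINC02316 at 49976 bp, with mean levels of 0.593, 3.35 and 0.505 CPM. Just outside it lay LINC02774 at 50005 bp, LINC02775 at 50010 bp and LINC01876 at 50020 bp, with 0.991, 1.94 and 0.781 CPM. The levels on both sides of the limit overlapped.

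LINC regions together took between 2.95% and 3.13% of the counts of each library. The 513 regions over a LINC start took 0.594% to 0.599% in aRG, 0.587% to 0.595% in bRG, 0.537% to 0.552% in bIP, then 0.477% to 0.489% in N, so the populations other than aRG and bRG did not overlap. The 4947 regions 10 to 50 kb away took 1.42% to 1.46% in aRG and 1.56% to 1.57% in N. The share over the starts was therefore lower in both neuron libraries and the distant share was higher, while the total hardly moved. Over protein-coding starts the share was 27.7% and 28.5% in aRG and 25.1% in both N libraries.

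Regions over LINC starts were less accessible than regions over protein-coding starts, and the gap closed with distance. The median over a LINC start was 5.04 CPM, against 23.5 CPM over the 10425 protein-coding starts. At 10 to 50 kb the medians were 1.45 and 1.55 CPM. A peak was listed in all 4 of the authors' consensus lists for 44.8% of regions over LINC starts and for 86.8% over protein-coding starts. No list held a peak for 20.5% and 3.64%, and the N list alone held one for 5.26% and 0.633%. The 5488 regions over starts of other genes, neither LINC nor matched to a protein-coding symbol, had a median of 7.6 CPM. Of these, 54.2% were in all 4 lists, 18.0% in none and 4.48% in the N list alone. They thus lay nearer to the LINC values. These are descriptions of the classes, which were not tested against each other.

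**Figure D1:**
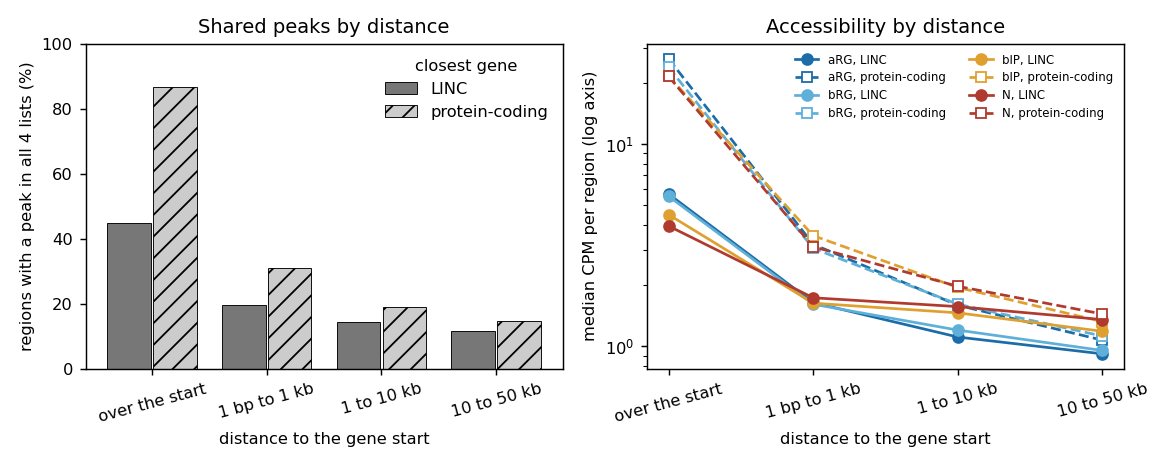
Regions closest to LINC genes and to protein-coding genes, by distance to the gene start. Left, bars give the percent of regions with a peak in all 4 consensus lists (44.8% for LINC and 86.8% for protein-coding over the start). Right, points give the median CPM per region in each population on a log axis, where the LINC and protein-coding lines approach each other with distance.

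Peaks near LINC genes fell into classes by population. Of the 8130 regions, 1207 had a peak in all 4 lists and 2997 in none. The N list alone held 982, the aRG and bRG lists alone 748, the bIP list alone 374, and the bIP and N lists alone 555. Most of these shares were near those of all regions, at 12.1% against 11.3% for N alone and 9.2% against 9.36% for aRG and bRG alone. For bIP alone they were 4.6% against 4.54%, and for no list 36.9% against 35.6%. The share in all 4 lists was lower, at 14.85% against 17.71% of all regions. For the bIP and N lists alone, the share of all regions was not counted. The N-only regions had a median of 0.444 CPM in aRG, 0.552 in bRG, 0.991 in bIP, then 3.77 in N. The regions of aRG and bRG alone went the other way, from 3.8 CPM in aRG to 1.37 in bIP, then 0.571 in N. The bIP-only regions had 0.759 CPM in aRG, 3.12 in bIP, then 1.35 in N. The lists were made from the same libraries as the counts, so these levels describe the classes and support nothing further. Regions in all 4 lists lay nearer to the start, at a median of 8747 bp and with 19.1% over it, while N-only regions lay at 15908 bp with 2.75% over it.

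The comparison of N with aRG asks how accessibility differs between both ends of the lineage. Of the 8130 LINC regions, 7581 passed the filter on low counts and were tested. In N, 2913 were higher and 2455 were lower than in aRG (edgeR quasi-likelihood test, adjusted p under 0.05). These are 38.4% and 32.4%, beside 37.0% and 32.1% of all 197744 regions tested. The median log2 fold change was 0.19 for LINC regions and 0.11 for all regions. With loess scaling these medians were 0.06 and 0.10, so their order turned, and 2680 LINC regions were higher and 2662 lower. Without bIP library 2, which is not part of this comparison, the medians were 0.05 and -0.03. As a class, LINC regions were thus called about as often as regions in general.

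Distance from the start went with the direction of the calls. Over LINC starts, 19.6% of tested regions were higher in N and 39.9% were lower. At 10 to 50 kb, 41.1% were higher and 31.4% were lower. Over protein-coding starts, 6.14% were higher and 44.4% lower, and at 10 to 50 kb 37.9% were higher. Among all regions the shares were 10.8% higher and 42.9% lower over starts, and 39.4% and 31.2% at 10 to 50 kb. Regions over the starts of other genes, neither LINC nor matched to a protein-coding symbol, had 19.1% higher and 40.3% lower, close to the LINC shares. The joint test of the 4 populations called 60.9% of regions over LINC starts and 48.1% over protein-coding starts. Regions over protein-coding starts also had higher counts, and the part of that in these shares was not tested.

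**Figure D2:**
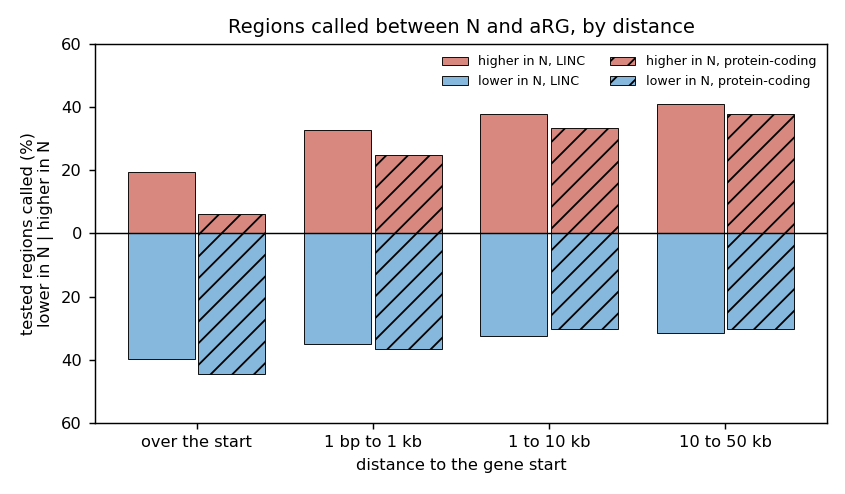
Percent of tested regions called higher (above 0) or lower (below 0) in N than in aRG, by distance to the start of the closest LINC or protein-coding gene. Over the start, 19.6% of LINC regions and 6.14% of protein-coding regions were higher, and at 10 to 50 kb 41.1% and 37.9%.

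The other comparisons gave the same picture of LINC regions near the background. Against bRG, 2933 LINC regions were higher in N and 2405 lower, beside 37.2% and 30.7% of all regions. Against bIP, 1914 were higher in N and 1898 lower, or 25.2% and 25%, beside 24.6% and 23.0%. Which direction held more regions in that comparison depended on the processing, with 1798 higher and 2109 lower under RLE scaling, 1454 and 1764 with DESeq2, and 1163 and 1588 without bIP library 2. Between bIP and aRG, 2070 were higher in bIP and 1640 lower, or 27.3% and 21.6%, beside 24.6% and 22.6%. Between bIP and bRG, 1913 were higher in bIP and 1536 lower, or 25.2% and 20.3%, beside 22.5% and 20.4%. Without bIP library 1 both of these counts were smaller. The joint test called 5792 LINC regions, or 76.4%, beside 73.6% of all regions. Between bRG and aRG, edgeR called 0 LINC regions, as it called 0.0% of all regions. There, 182 of 7581 LINC regions and 5265 of all 197744 had an unadjusted p under 0.05, and DESeq2 also called 0.

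Counts were also summed over the regions of each LINC gene, giving 1746 tested loci with a median level of 10.3 CPM. In N, 622 loci were higher and 581 lower than in aRG, or 35.6% and 33.3%, beside 27.9% and 34.8% of all 40324 loci tested. Under RLE scaling the counts were 585 and 642, so the larger direction turned, while DESeq2 gave 667 and 506 and loess scaling 641 and 566. The direction also turned without bIP library 2, which is not part of this comparison. There the median log2 fold change of all loci went from -0.114 to -0.275, so the shift was not confined to LINC loci. Of the reported loci, 495 were more than 2-fold higher and 406 more than 2-fold lower, and the matching counts over all loci were not made. Between N and bIP, 463 were higher in N and 402 lower, beside 21.1% and 18.9% of all loci, and without bIP library 2 the counts were 283 and 368. Between bIP and aRG, 426 were higher in bIP and 501 lower, beside 18.1% and 29.7%. In that split 46.0% of called loci were higher in bIP, against 57.5% with DESeq2, 54.8% with loess scaling and 45.0% with RLE scaling in edgeR. The median log2 fold change of all loci in this comparison was -0.18 here, 0.00 with DESeq2, -0.02 with loess scaling and -0.19 with RLE scaling. The joint test called 1314 loci, or 75.3%, beside 66.8%. Between bRG and aRG it was again 0 loci, beside 0.0% of all loci, and 0 by DESeq2. There, 25 of 1746 LINC loci and 818 of all 40324 had an unadjusted p under 0.05.

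Among the loci with the largest rises in N, LINC02262 on chromosome 4 had the smallest standard error. Its 4 regions summed to 1.88 and 2.19 CPM in aRG, 2.77 and 2.68 in bRG, 21.4 and 19.8 in bIP, and 35.5 and 42.4 in N. The bIP and N libraries were all above the radial glia libraries, and N was above bIP. The separation from aRG was a condition for naming this locus. The log2 fold change of N against aRG was 4.26 ± 0.19 (SE, adjusted p = 3.1e-06) and of bIP against aRG 3.34 ± 0.19 (adjusted p = 2.2e-05). All 4 regions were called higher in N. The most accessible, at chr4:115019445-115020412, lay 22388 bp from the start and had peaks in bIP and N. Among the protein-coding starts that the regions could place, the nearest was that of TRAM1L1, 275064 bp away. The TRAM1L1 locus had a log2 fold change of 0.30 (adjusted p = 0.07).

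LINC00905 on chromosome 19 had the largest log2 fold change of N against aRG among loci reaching 10 CPM, 4.95 ± 0.49 (adjusted p = 2.7e-05). Its 1 region, chr19:16560282-16561017, measured 0.391 and 0.337 CPM in aRG, 0.501 and 0.814 in bRG, 3.9 and 1.61 in bIP, then 9.78 and 13.1 in N. LINC02745 on chromosome 11 measured 0.938 and 1.26 CPM in aRG, 1.94 and 1.42 in bRG, 17.9 and 6.31 in bIP, then 37.2 and 27.1 in N, a log2 fold change of 4.87 ± 0.51 (adjusted p = 3.6e-05). Its bIP libraries differed, and without bIP library 1 the rise from aRG to bIP went from 3.46 to 2.52. LINC01716 on chromosome 20, at 51743 bp from the start of TFAP2C, was at 1.13 and 1.26 CPM in aRG and 21.5 and 21.9 in N, a log2 fold change of 4.17 ± 0.32 (adjusted p = 7.2e-06). The TFAP2C locus, which encodes an AP-2 transcription factor, fell by 1.94 on the log2 scale (adjusted p = 8.6e-06), so the neighbouring loci moved in opposite directions.

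At some loci the rise came at the step from bIP to N. LINC01192 on chromosome 3 measured 0.508 and 0.632 CPM in aRG, 1.17 and 1.19 in bIP, then 8.67 and 14.3 in N. LINC01436 on chromosome 21 measured 0.665 and 0.8 CPM in aRG, 1.46 in both bIP libraries and 9.81 and 17.3 in N. Their log2 fold changes of N against bIP were 3.28 ± 0.32 (edgeR adjusted p = 0.00021) and 3.21 ± 0.32 (adjusted p = 0.00022). LINC02301 on chromosome 14 and LINC00895 on chromosome 22 rose by 3.14 ± 0.33 and 3.07 ± 0.43 at that step. In all of these the N libraries were above every bIP library, a condition for naming them. LINC00895 rested partly on N library 2, and without it the value was 2.42 (adjusted p = 0.0026).

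Other loci were higher by the bIP stage and had no call from bIP to N. LINC01345 on chromosome 1 measured 1.25 and 1.14 CPM in aRG, 19.9 and 12.6 in bIP, then 16.7 and 9.9 in N. Its log2 fold change was 3.76 ± 0.38 for bIP against aRG (adjusted p = 0.00012) and -0.29 ± 0.31 for N against bIP (adjusted p = 0.5). LINC01668 on chromosome 21 measured 1.56 and 1.47 CPM in aRG, 20.6 and 11.6 in bIP, then 19.9 and 11 in N. Library 1 was the higher one in bIP and in N at both loci.

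The largest falls had a common order, high in both kinds of radial glia, lower in bIP and lowest in N. LINC01133 on chromosome 1, whose RNA has mostly been studied in tumours, measured 27.6 and 29.0 CPM in aRG, 24.9 and 25.1 in bRG, 2.99 and 6.0 in bIP, then 0.712 and 0.732 in N. The log2 fold change of N against aRG was -5.29 ± 0.33 (adjusted p = 3.7e-06). Most of its signal was in chr1:134968507-134969455, 1461 bp from the start, with peaks in aRG and bRG. LINC02448 on chromosome 12 measured 32.1 and 25.6 CPM in aRG, 3.28 and 3.88 in bIP, then 0.898 and 1.04 in N, a log2 fold change of -4.90 ± 0.23 (adjusted p = 3.1e-06).

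LINC00967 on chromosome 8 lies 14446 bp from the start of CRH, the gene of corticotropin-releasing hormone. It measured 85.6 and 95.2 CPM in aRG, 74.9 and 85.6 in bRG, 14.1 and 27.9 in bIP, then 3.9 and 4.01 in N, which made it the most accessible of the large falls (-4.51 ± 0.29, adjusted p = 3.9e-06). The CRH locus fell by 0.72 (adjusted p = 0.0029). LINC02123 on chromosome 5 fell from 57.7 and 52 CPM in aRG to 2.2 and 2.62 in N (-4.51 ± 0.26). Its strongest region, chr5:7246746-7247878, lay over the start itself. LINC01710 and LINC01641, both on chromosome 1, had log2 fold changes of -4.85 and -5.13. At LINC01641 the bIP libraries were 0.947 and 2.96 CPM, and the fall from aRG to bIP was -2.42 without bIP library 1 and -4.09 without bIP library 2.

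**Figure D3:**
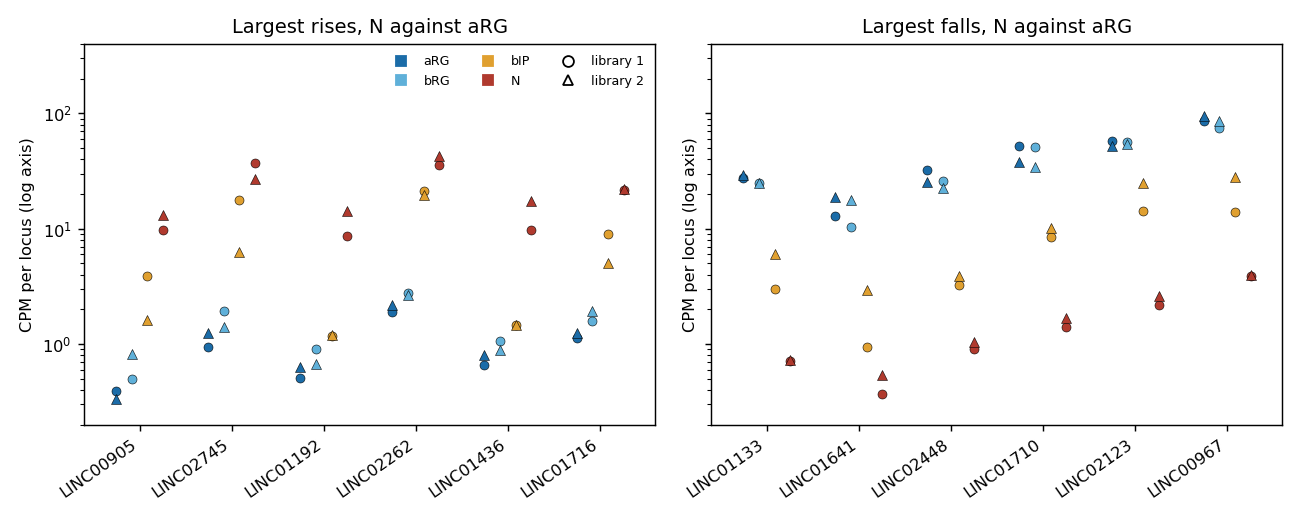
CPM per locus on a log axis for the 6 LINC loci with the largest rises (left) and falls (right) in N against aRG. Each point is 1 library, coloured by population, with circles for library 1 and triangles for library 2. The N libraries lie above all aRG libraries on the left and below them on the right, a condition for naming these loci. The bIP libraries lie between at most loci.

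LINC01891, LINC02842 and LINC01870 were among the largest falls from bIP to N. LINC01891, on chromosome 2B, measured 52.1 and 47.5 CPM in aRG, 16.7 and 17 in bIP, then 2.97 and 2.31 in N. The log2 fold change of N against bIP was -2.66 ± 0.15 (adjusted p = 8.5e-05). LINC02842 on chromosome 8 measured 24.2 and 59.4 CPM in aRG, 24.6 and 64.6 in bRG, 13.8 and 36.2 in bIP, then 2.23 and 2.89 in N. Library 2 was the higher one in all populations there, and the N against bIP value was -3.30 ± 0.67 (adjusted p = 0.0041), or -2.58 without bIP library 2. LINC01870 on chromosome 2A, 4946 bp from the start of RFX8, measured 17.6 and 15.2 CPM in aRG, 28.4 and 36.2 in bIP, then 4.77 and 4.82 in N. LINC02543 on chromosome 6 had already fallen as a sum by the bIP stage, from 47.9 and 33.9 CPM in aRG to 5.9 and 6.34 in bIP. Its sum was 7.37 and 7.2 CPM in N. The strongest region, chr6:15878232-15879677, was lower again in N, at 3.71 and 4.92 CPM in bIP and 0.991 and 0.963 in N. Within 10 kb of the start the fall of the sum from aRG to bIP was -0.65 (adjusted p = 0.1).

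Accessibility did not always run in 1 direction along the lineage. Of the 1746 LINC loci, 144 were higher at both steps, from aRG to bIP and from bIP to N, or 8.25% beside 5.9% of all loci. Lower at both steps were 192, or 11% beside 8.92%. Higher in bIP than in aRG and lower in N than in bIP were 93, or 5.33% beside 3.76%. The opposite pattern had 71, or 4.07% beside 3.13%. Of the 1314 loci called in the joint test, the highest mean was in N at 555, in aRG at 401, in bIP at 217 and in bRG at 141. The matching counts over all loci were not made, so this order cannot be read as particular to LINC loci.

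LINC01939 on chromosome 2A was highest in bIP. It measured 5.16 and 4.67 CPM in aRG, 4.54 and 3.93 in bRG, 31.9 and 32.4 in bIP, then 8.3 and 5.01 in N. Both bIP libraries stood above all others, which the naming of this locus required against aRG and N. The log2 fold change was 2.71 ± 0.25 for bIP against aRG (edgeR adjusted p = 8.5e-05) and -2.27 ± 0.24 for N against bIP (adjusted p = 0.00025). Most of the signal was in chr2A:865595-866757, 475 bp from the start, with 27.5 and 28.3 CPM in bIP. LINC02176 on chromosome 16 measured 4.53 and 4.42 CPM in aRG, 28.7 and 26.0 in bIP, then 9.41 and 3.85 in N. LINC00709 on chromosome 10 measured 2.5 and 4.0 CPM in aRG, 7.86 and 13.4 in bIP, then 2.35 and 1.77 in N. LINC02130 on chromosome 16 measured 7.0 and 3.66 CPM in aRG, 20.6 and 15 in bIP, then 7.46 and 1.93 in N. Its rise to bIP was 1.73 ± 0.56 (adjusted p = 0.03), with adjusted p = 0.16 without aRG library 2, 0.14 without bIP library 1 and 0.055 without bIP library 2. Its fall to N lost the call without bIP library 1 (adjusted p = 0.11) or without N library 2 (adjusted p = 0.083).

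LINC01951 on chromosome 5, 270931 bp from the start of the homeobox gene MSX2, was lowest in bIP. It measured 46.9 and 41.1 CPM in aRG, 45.0 and 40.2 in bRG, 17.5 and 16.8 in bIP, then 44.5 and 42.3 in N. The sums in aRG and N overlapped, while 4 of its 7 regions were higher and 1 was lower in N than in aRG. The region with most signal, chr5:153139512-153141023, held 40.8 and 36.3 CPM in aRG, 6.34 and 8.38 in bIP, then 3.03 and 2.35 in N. Within 10 kb of the start the sign of N against bIP turned at LINC01951 (-0.36) and LINC02608 (-0.26). LINC02608 on chromosome 1 had sums of 14.7 and 19.6 CPM in aRG, 5.1 and 6.8 in bIP, then 17.8 and 13.5 in N. Its region chr1:187394502-187395410 fell from 10.1 and 13.3 CPM in aRG to 0.372 and 0.462 in N. LINC02133 and LINC01195, both on chromosome 16, had log2 fold changes of -1.21 and -1.34 from aRG to bIP, and of 1.21 and 1.18 from bIP to N.

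**Figure D4:**
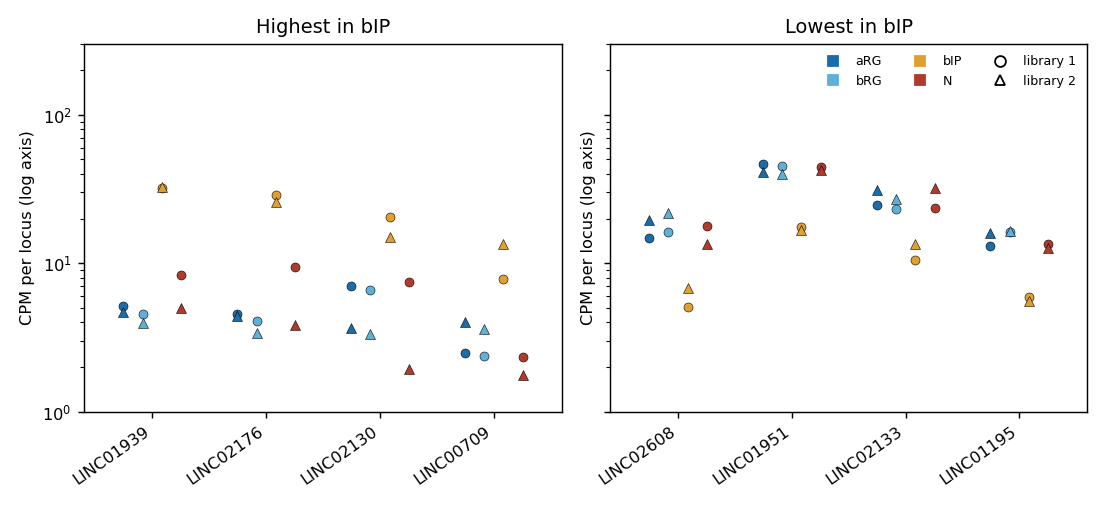
CPM per locus on a log axis for the 4 LINC loci highest in bIP (left) and the 4 lowest in bIP (right). Each point is 1 library, coloured by population, with circles for library 1 and triangles for library 2. At LINC01951 the bIP libraries, at 17.5 and 16.8 CPM, lie below the other 6, which the naming required against aRG and N.

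Regions of 1 locus often moved in opposite directions. Of 1166 LINC loci with 2 or more regions called between N and aRG, 734 (63.0%) had both higher and lower regions, 233 had only higher ones and 199 only lower ones. Among 6422 protein-coding loci the share with both was 60.6%. With exactly 2 called regions, the shares were 38.5% for LINC loci and 39.8% for protein-coding loci. Mixed direction was thus common to both classes.

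LINC02151 on chromosome 11 showed it most plainly. Its 20 regions summed to 132.0 and 122.0 CPM in aRG, 125.0 and 124.0 in bRG, 123.0 and 118.0 in bIP, then 136.0 and 118.0 in N, with no call in any pair (N against aRG 0.00 ± 0.10, edgeR adjusted p = 0.98). Within it, 12 regions were higher in N and 4 lower. The region over the start, chr11:112275698-112278413, measured 50.5 and 38.4 CPM in aRG, 24.5 and 24.0 in bIP, then 15.3 and 10.5 in N (-1.78 ± 0.18, adjusted p = 3.4e-06). At the far end, chr11:112324329-112325169, 47255 bp away, had a mean of 0.227 CPM in aRG and 8.97 in N, a log2 fold change of 5.30. The 12 higher regions all lay more than 30 kb from the start, as did 2 of the 4 lower ones, at 32373 and 32509 bp.

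LINC00299 on chromosome 2A held 14 regions and rose as a sum, from 14.9 and 15.7 CPM in aRG to 20.5 and 19.7 in bIP, then 40.9 and 42.2 in N (1.44 ± 0.12, adjusted p = 1.1e-05). Its region chr2A:8280966-8281757, 6689 bp from the start, fell from 7.39 and 8.09 CPM in aRG to 0.774 and 0.809 in N. The region chr2A:8331512-8332059, 43139 bp away, rose from a mean of 0.466 CPM in aRG to 12.2 in N. Within 10 kb of the start alone the sum gave -0.26 (adjusted p = 0.25). The nearest placed protein-coding start was that of ID2, which encodes an inhibitor of helix-loop-helix transcription factors, 354215 bp away. The ID2 locus fell by 1.13 on the log2 scale (adjusted p = 0.0019).

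LINC00511 on chromosome 17 moved the other way. Its 11 regions summed to 100.0 and 105.0 CPM in aRG, 106.0 and 101.0 in bRG, 68.2 and 80.4 in bIP, then 55.0 and 48.0 in N (-0.99 ± 0.11, adjusted p = 5.6e-05), with 8 regions lower and 1 higher. The region over the start, chr17:65663467-65665788, fell from 31.9 and 33.7 CPM in aRG to 24.9 and 21.0 in N (-0.52 ± 0.13, adjusted p = 0.0033). The region chr17:65648430-65649950, 15495 bp away, fell from a mean of 29.9 CPM to 2.96. Its nearest placed protein-coding start, 471672 bp away, was that of SOX9, a transcription factor of glial progenitors, whose locus fell by 0.84 (adjusted p = 5.7e-05).

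**Figure D5:**
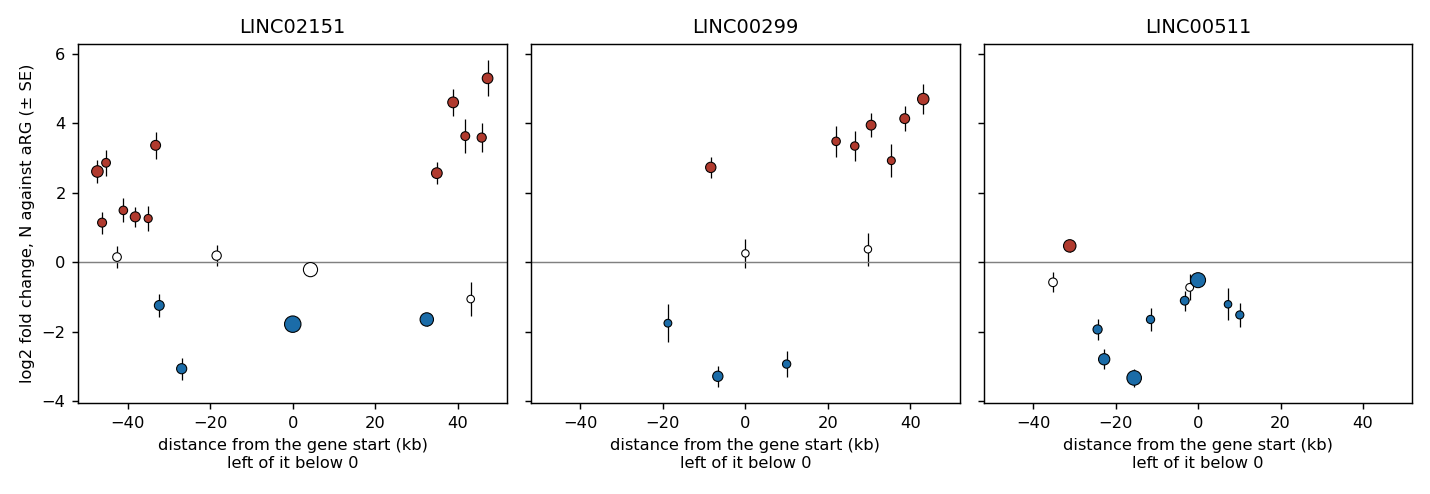
Log2 fold change of N against aRG (± SE) for each tested region of 3 LINC loci, by distance from the gene start in kb, with regions at lower chimpanzee coordinates to the left. Filled circles passed the test (red higher, blue lower in N), open circles did not, and circle size grows with the higher of both means. At LINC02151 the 12 higher regions lie more than 30 kb from the start, as do 2 of the 4 lower ones.

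The other loci with most regions were mixed too. LINC01315 on chromosome 22 had 20 regions and sums of 195.0 and 160.0 CPM in aRG, 266.0 and 235.0 in bIP, then 211.0 and 176.0 in N, with 9 regions higher and 4 lower in N than in aRG. LINC02630 on chromosome 10, 256684 bp from the start of the Wnt receptor gene FZD8, had 17 regions and sums of 161.0 and 144.0 CPM in aRG and 85.4 and 77.6 in N (-0.91 ± 0.10, adjusted p = 4.8e-05), with 5 higher and 7 lower. Its region chr10:36067623-36070531 alone held 97.4 and 89.2 CPM in aRG and lay 49857 bp from the start. Without the regions beyond 10 kb the value was -0.03 (adjusted p = 0.93). LINC02122 on chromosome 5 had 17 regions and fell by 0.50 ± 0.13 (adjusted p = 0.0074), with 8 higher and 4 lower, and without aRG library 1 the adjusted p was 0.08. Within 10 kb of the start its sum gave 3.24 in place of a fall.

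No call in any pair or in the joint test was made at 299 LINC loci, or 17.1%. The matching share of all loci was not counted, while the joint test alone called 75.3% of LINC loci and 66.8% of all loci. After LINC02151, the most accessible of these were LINC01816 on chromosome 2A, LINC01987 on chromosome 17 and LINC01065 on chromosome 13. LINC01816 measured 106.0 and 104.0 CPM in aRG and 95.1 and 87.7 in N. LINC01987 measured 89.4 and 74.3 CPM in aRG and 117.0 and 93.7 in N. LINC01065 measured 111.0 and 79.5 CPM in aRG and 79.3 and 75.2 in N, and 6 of its 14 regions were higher and 5 lower. The aRG and N libraries did not overlap at these 3 loci, although 79.5 and 79.3 CPM at LINC01065 nearly met. How often libraries do not overlap over all loci was not counted. LINC01065 passed without aRG library 2 (adjusted p = 0.026) or bIP library 2 (adjusted p = 0.042), and within 10 kb of the start its sum fell by 1.85 (adjusted p = 8.3e-05), and LINC01816 passed without bIP library 2 (adjusted p = 0.0081).

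The largest changes of single regions exceeded those of the sums. The largest rises were chr12:87888715-87889292 near LINC02392, from 0.0391 and 0.295 CPM in aRG to 9.38 and 14.4 in N (6.15 ± 0.54, edgeR adjusted p = 1.2e-06), chr14:66898539-66899487 near LINC02316 (5.76 ± 0.53) and chr10:6465338-6466576 near LINC02656 (5.60 ± 0.36). The LINC02656 region had 0.43 and 0.547 CPM in aRG, 4.15 and 2.61 in bIP, then 21.4 and 26.4 in N. The largest falls were chr1:61820149-61820941 near LINC01739 (-6.26 ± 0.35), chr4:182462531-182463861 near LINC02427 (-6.23 ± 0.33) and chr3:28264031-28265190 near LINC01967 (-5.83 ± 0.42). The LINC01739 region had 42.9 and 36.6 CPM in aRG, 33.7 and 32.3 in bRG, 5.32 and 11.3 in bIP, then 0.557 and 0.462 in N. Groups did not overlap at any of these regions, a condition for naming them.

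A list of 18 LINC genes known from brain or chromatin work was also examined, of which 12 had a region within reach. Of these 12, 2 were higher in N than in aRG and 6 lower, beside 27.9% and 34.8% of all loci. LINC00599, the host gene of a miR-124 copy, a microRNA abundant in neurons, measured 17.9 and 17 CPM in aRG, 17.4 and 16.0 in bRG, 39.2 and 34.8 in bIP, then 44.6 and 43.8 in N. Its log2 fold change was 1.34 ± 0.11 for N against aRG (adjusted p = 1.1e-05) and 1.08 ± 0.11 for bIP against aRG (adjusted p = 0.00013). The step from bIP to N was 0.26 ± 0.11 (adjusted p = 0.091). Of its 9 regions, 8 were higher in N, including chr8:8871497-8873032, 240 bp from the start, at 10.4 and 9.26 CPM in aRG and 21.5 and 23.6 in N.

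LINC00461, the host gene of a miR-9 copy, a microRNA of neural progenitors and neurons, had no call between N and aRG. It measured 97.8 and 106.0 CPM in aRG, 81.3 and 93.6 in bRG, 101.0 and 112.0 in bIP, then 107.0 and 108.0 in N (0.08 ± 0.11, adjusted p = 0.54). The locus of MEF2C, a transcription factor gene with its start 219300 bp away, fell by 2.25 (adjusted p = 0.00024). LINC01551 on chromosome 14 fell from 22.4 and 25.1 CPM in aRG to 11 and 11.3 in N (-1.09 ± 0.17, adjusted p = 0.00038). Whether LINC00461 and MEF2C differ in their change was not tested.

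Of the other genes of the list, LINC00299, described above, was higher in N than in aRG. The rest, with LINC00511 described above among them, were lower or not called. LINC00507 on chromosome 12 measured 8.29 and 8.63 CPM in aRG, 11.5 and 9.83 in bRG, 2.8 and 3.5 in bIP, then 1.21 and 2.85 in N (-2.08 ± 0.35, adjusted p = 0.00066), and without N library 2 the value was -2.80. LINC00508 beside it measured 3.56 and 12.3 CPM in aRG, 3.98 and 14.6 in bRG, 0.874 and 4.19 in bIP, then 0.279 and 0.27 in N. Library 2 was the higher one in aRG, bRG and bIP, and the value of -4.82 ± 1.05 (adjusted p = 0.003) became -3.67 without aRG library 2 and -5.46 without aRG library 1. LINC00689 on chromosome 7 fell by 1.20 ± 0.19 and LINC01122 on chromosome 2A by 0.67 ± 0.12. LINC00643, LINC01116 and LINC01414 had values of -0.51, -0.09 and -0.07 and did not pass. At LINC00643 the value was -1.02 without N library 2, and its strongest region, chr14:42928419-42930876, was lower in N (-1.03, edgeR adjusted p = 0.0044). Reads were few at LINC01414, whose strongest region held 9 and 10 in aRG and 11 and 13 in N. Within 10 kb of the start the sign turned at LINC00689 (1.27), LINC00643 (2.68) and LINC00507 (2.08).

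Between bRG and aRG no locus passed, and those with the smallest unadjusted p are given as values. LINC01992 on chromosome 17 measured 1.8 and 2.4 CPM in aRG and 3.86 and 3.8 in bRG, and rose on to 10.3 and 11.3 in bIP, then 21.8 and 18.5 in N. LINC02428 on chromosome 4 measured 0.313 and 0.211 CPM in aRG and 0.648 and 0.678 in bRG. LINC01124 on chromosome 2B measured 18.2 and 18.9 CPM in aRG and 13.2 and 12.7 in bRG. LINC02114 on chromosome 5 had no count in aRG and 0.147 and 0.0678 CPM in bRG. All 4 had an adjusted p of 1.0 (edgeR). Their 2 aRG and 2 bRG libraries did not overlap, but a choice by the smallest p favours such loci. How often this holds over all loci was not counted. Reads were few at 2 of them. The strongest region of LINC02114 held 5 and 2 reads in bRG. That of LINC02428 held 8 and 5 reads in aRG and 22 and 20 in bRG.

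A nearest protein-coding start was found for 1589 LINC genes, at a median of 136807 bp and with the middle 80% between 20820 and 696245 bp. Only the 12865 protein-coding starts that the regions could place were searched, so a nearer one may be missing. Over 1569 pairs of loci, the log2 fold changes of N against aRG had a Pearson correlation of 0.127 and a Spearman correlation of 0.17. Both loci of a pair come from the same libraries and neighbouring DNA. Where both were called, 422 of 708 pairs (59.6%) had the same direction. For the 73 pairs within 10 kb the Pearson correlation was 0.0974, and for the 588 pairs next to one another at intermediate distances of 50 to 200 kb it was 0.17. A LINC locus and its nearest placed protein-coding locus therefore went only weakly together.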

How the data were processed

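Bulk ATAC-seq of 8 libraries was deposited by the authors as a table of read counts per region and as 1 consensus peak list per population. Per the submitters' processing notes, bcl2fastq 2.20.0 and MACS2 were used with the builds panTro6 and hg38. For the aligner, and for how regions were merged and annotated, the sources used here give nothing. The count columns are deposited raw counts, and each was matched to its sample by name. The deposited peak lists give each peak a −log10 q-value, which was not used to filter here, and positions were matched with an overlap of at least 1 bp (bedtools 2.31.1). Gene distances in the deposited table were taken to be in hg38 coordinates, which no source states, and positions are printed in panTro6.

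Of 218080 rows, 6725 without a chimpanzee position and 7 repeats were left out. Closest genes were taken as protein-coding where their symbol is listed so in RefSeq. Coding genes under other symbols would fall among the other genes. Regions and sums of regions within 50 kb of each gene were tested with edgeR 4.0.16 (R 4.3.3) after filterByExpr, TMM scaling and a robust quasi-likelihood fit over all 4 populations, with Benjamini-Hochberg adjustment over all features. Standard errors are the log2 fold change divided by the square root of F. The filter removed 13604 regions and 841 loci. The scripts were tested on simulated data. Alternatives were DESeq2 1.42.0, RLE scaling, no filter, a replicate block, each library left out, a 10 kb window and, chosen after seeing the data, loess scaling. Gene starts were placed from the distances, and 99.94% of 10583 regions pointed to 1 position per gene.

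Named loci needed a mean of at least 10 CPM in the higher population, a call and libraries that did not overlap. Of these, the 6 with the largest change in each direction were taken for N against aRG, and the 4 in each direction for bIP against aRG and for N against bIP. The 4 loci with most regions, the 4 most accessible loci without a call, up to 4 for each bIP pattern, the 4 with the smallest p for bRG against aRG, the 3 single regions with the largest change in each direction and the listed genes were added. The members and lists were chosen with earlier results of these data known. Intervals and p-values cover these libraries only, and no sequences are printed because no genome was used here.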

Additional observations from a re-analysis of the deposited data

How the results depend on the processing

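The counts of called LINC regions and loci, both directions together, stayed within 1.5 times the reported ones under RLE scaling, DESeq2, no filter, the replicate block, loess scaling and each library left out. Counting only regions within 10 kb of the start left 2041 called regions for N against aRG, 2028 for N against bRG, 1439 for N against bIP, then 1418 between bIP and aRG, 1325 between bIP and bRG and 2194 in the joint test, because fewer regions belong. Leaving out a library gave 4742 to 5427 regions for N against aRG and 2301 to 3617 for bIP against bRG, where the reported count is 3449. Counts by direction moved more. Without bIP library 2, the counts higher in N than in bIP dropped more than the lower ones, for regions and for loci. Without bIP library 1, the counts between bIP and bRG dropped in both directions. Without bIP library 2, 43.5% of called loci were higher in N than in bIP, against 53.5% with it.

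The 10 kb window turned the sign at several named loci: for N against aRG to -0.32 at LINC01315, -0.98 at LINC02151, 3.24 at LINC02122, 2.68 at LINC00643, 2.08 at LINC00507, -0.26 at LINC00299 and 1.27 at LINC00689, and for N against bIP to -0.26 at LINC02608 and -0.36 at LINC01951. Fewer regions enter those sums. Loess scaling turned LINC01816 to 0.25 (adjusted p = 0.017) and the cause was not tested. It also gave calls at LINC02151 (0.51), LINC01315 (0.75), LINC01987 (0.79) and LINC00461 (0.53), and ended that at LINC02122 (-0.05). LINC01987 passed with DESeq2 (0.49) and LINC01816 with RLE scaling (-0.30). The 10 kb window ended the call of LINC02543 for bIP against aRG (-0.65). Of the 67 named comparisons, 54 were called, and 9 lost the call in 1 or more settings, 4 of them where the 10 kb window also turned the sign (LINC00299, LINC00507, LINC02608 and LINC01951).

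With the replicate number as a replicate block, 5656 LINC regions and 1329 LINC loci were called for N against aRG, and for N against bIP 4396 and 1041. Over all features it called 144747 of 197744 regions and 28007 of 40324 loci for N against aRG. For N against bIP these counts were 109367 and 20087. Between bRG and aRG the block called 0 regions and 0 loci. The block also gave calls at LINC01816 and LINC01987. Same-numbered libraries deviated together, with correlations from 0.198 to 0.643 over 39972 loci, but the labels give them only a shared number. With 2 libraries a population, small differences are beyond what these data can show, and a sum over a locus hides opposite changes of its regions.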
